A study of Mus musculus with 12 samples.

Results

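Amy1, Nmb, Hopx, Pdzk1ip1 and Ldhd are 5 genes whose transcripts were already more abundant in mouse ovaries with stage I tumors, and at least as abundant in stage II. They are 5 of the 10949 genes measured, and were found by their symbol in the platform annotation. Every probe set (a set of short oligonucleotides summarized as 1 value) that carries their symbol and no other was used. This gave 6 probe sets, 1 each for Amy1, Nmb, Hopx and Pdzk1ip1 and 2 for Ldhd. The values used here cover 16376 probe sets from the low end of the array's probe set numbers. Probe sets and genes beyond them were not analysed here, so "measured" and ranks among all genes refer to these alone. The genes were chosen by their measured differences in log2 level between control, stage I and stage II ovaries on these same arrays. Those levels and differences are therefore given as a description, without a test.

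RNA of 12 ovary samples was measured on 1 array each. The 6 control mice had the genotype Pgrcre/+ and no tumor, and the 3 stage I and 3 stage II mice had the genotype Pgrcre/+PgrBLsL/+. All 12 mice carried the Pgrcre allele, were 23 weeks old, ate normal chow, were housed with littermates and were killed at diestrus, the resting phase of the cycle. Pgrcre puts the Cre recombinase under the control of the progesterone receptor gene, so the PgrBLsL allele can be switched on in any cell in which that promoter has been active, within the ovary and elsewhere. Every tumor sample carries the allele and no control does, so the allele and the tumor cannot be told apart. Pgr itself had a log2 level of 4.20 ± 0.28 (SD, n = 6) in the control group, and stage I stood at 9.15 ± 0.12 (n = 3) and stage II at 9.94 ± 0.16 (n = 3).

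The 5 genes have no common pathway in textbooks. Amy1 encodes the salivary type of amylase, a secreted enzyme that cuts the α-1,4 bonds of starch and glycogen. Nmb encodes neuromedin B, a small secreted peptide of the bombesin family that acts through a receptor coupled to Gq proteins. Hopx encodes a small homeodomain protein that does not bind DNA itself and restrains transcription by serum response factor in the heart, and its gene marks alveolar type 1 cells of the lung. Pdzk1ip1 encodes a small membrane protein of the kidney's proximal tubule, which binds the scaffold protein Pdzk1 and the glucose transporter Slc5a2. Ldhd encodes the mitochondrial lactate dehydrogenase for the D form of lactate, the form that arises when methylglyoxal is broken down.

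The genes lie on 5 chromosomes in RefSeq's annotation of mouse assembly GRCm38.p6: Amy1 on chromosome 3, Pdzk1ip1 on 4, Hopx on 5, Nmb on 7 and Ldhd on 8. All but Pdzk1ip1 are on the minus strand. Amy1 and Hopx have 2 annotated start sites each. The 5 genes were higher together in ovaries that carry an added progesterone receptor allele. The window from 250 bases before to 50 after each start site was therefore searched on both strands for TGTTCT. These letters are only a part of the element bound by the progesterone, androgen and glucocorticoid receptors, and the whole element was not searched for. The TATA box (TATAAA) was searched in the same way, as were the GC box, whose letters are GGGCGG, and the site of the AP-1 factors, whose letters are TGANTCA. Of 32851 promoters of that length, 19.0% hold TGTTCT, 13.6% TATAAA, 35.7% GGGCGG and 7.81% TGANTCA. The 3 windows that hold any of these letters are printed from 5′ to 3′ on the gene's strand, up to the base before the start site, with each match in capitals (AGAACA is TGTTCT on the opposite strand). They are both windows of Amy1, at chr3:113577751-113578000 (start site 1) and chr3:113574763-113575012 (start site 2), and that of Nmb, at chr7:80905063-80905312.
Amy1 start site 1: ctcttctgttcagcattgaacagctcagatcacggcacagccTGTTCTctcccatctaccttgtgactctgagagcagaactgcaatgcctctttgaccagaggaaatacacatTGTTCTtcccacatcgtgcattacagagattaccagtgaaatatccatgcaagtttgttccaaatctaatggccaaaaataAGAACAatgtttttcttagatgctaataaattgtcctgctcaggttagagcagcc
Amy1 start site 2: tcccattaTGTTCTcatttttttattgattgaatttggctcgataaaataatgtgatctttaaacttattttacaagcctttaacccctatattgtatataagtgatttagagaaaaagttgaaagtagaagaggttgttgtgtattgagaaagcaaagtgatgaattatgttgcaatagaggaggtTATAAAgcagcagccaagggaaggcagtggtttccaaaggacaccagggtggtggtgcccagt
Nmb: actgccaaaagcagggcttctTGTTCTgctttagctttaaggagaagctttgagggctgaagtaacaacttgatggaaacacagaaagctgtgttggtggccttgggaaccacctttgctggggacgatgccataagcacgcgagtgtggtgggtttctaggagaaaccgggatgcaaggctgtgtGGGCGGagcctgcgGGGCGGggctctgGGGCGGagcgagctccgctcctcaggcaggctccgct

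The window of Amy1 start site 1 holds TGTTCT 3 times, at positions -208, -136 and -55, the last on the opposite strand. That of Amy1 start site 2 holds TGTTCT at -242 and TATAAA at -63. The Nmb window holds TGTTCT at -229 and the GC box 3 times, at -64, -50 and -37. The Amy1 windows are also poorer in G and C, at 42.4% and 36% of bases, than the Nmb window at 58%, against a median of 52.4% over all promoters. None of the 4 motifs was found in the windows of Hopx, Pdzk1ip1 and Ldhd. A match is a description of the letters and does not show that a receptor binds there, and windows without one say nothing of the factor.

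Amy1 gave the largest difference of the 5 genes in stage I. Its probe set 1417765_a_at ran from 7.35 over a median of 7.62 to 7.69 on the log2 scale in the 6 controls. The 3 stage I ovaries stood at 11.26, 10.28 and 9.56. The 3 stage II ovaries stood at 11.39, 11.03 and 10.18. Every tumor ovary was above every control, and the stages overlapped: stage I ovary 1 was above stage II ovaries 2 and 3. Group means with their SD were 7.59 ± 0.13 for control (n = 6), 10.37 ± 0.85 for stage I (n = 3) and 10.87 ± 0.62 for stage II (n = 3). These are differences from control of 2.78 (6.87-fold) and 3.28 (9.72-fold), with a standard error (SE) of 0.31 each. The SE of a member takes the spread as equal in the 3 groups, although its stage I arrays varied more than its controls. The stage I difference was 84.7% of the stage II difference on the log2 scale, a larger share than for the other members, and the stages differed by 0.50 ± 0.36 (SE), which is within the spread of the stage I arrays.

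Other amylase probe sets did not share this pattern. The pancreatic amylase genes Amy2a1 to Amy2a5 share the probe set 1416055_at, which stood at 3.07 ± 0.089 (SD, n = 6) in controls, 3.16 to 3.22 in stage I and 3.19 to 3.36 in stage II, near the lowest value of the whole table, 2.69. A further probe set, 1429504_at, is annotated to both Amy1 and Rnpc3, the gene next to Amy1, which encodes a protein of the minor spliceosome. Its values were 7.83 to 8.33 in controls, 8.18 to 8.23 in stage I and 7.61 to 8.10 in stage II. Its mean differed from control by -0.01 in stage I and by -0.32 in stage II. Which of its annotated transcripts it reads cannot be told from the files, so it was not counted for Amy1.

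Nmb gave the largest difference from control of the 5 genes in stage II. Its probe set 1419405_at ran from 6.79 over a median of 6.88 to 7.14 in controls. The stage I ovaries stood at 10.52, 8.32 and 8.52, and the stage II ovaries at 11.45, 11.12 and 11.75. The 3 groups did not overlap, and the first stage I ovary lay far above the other two. Group means with their SD were 6.93 ± 0.14 for control (n = 6), 9.12 ± 1.22 for stage I (n = 3) and 11.44 ± 0.31 for stage II (n = 3). The differences from control were 2.19 (4.57-fold) in stage I and 4.51 (22.8-fold) in stage II. Their SE was 0.37, which takes the spread as equal in the 3 groups. Without the first stage I ovary the stage I difference was 1.49.

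Hopx showed the tightest stage I group of the 5 genes. Its probe set 1428662_a_at ran from 7.60 over a median of 7.72 to 8.04 in controls. The stage I ovaries stood at 9.45, 8.96 and 8.91, and the stage II ovaries at 11.49, 10.99 and 10.99. The groups were separate, with 0.87 between the lowest stage I ovary and the highest control, and 1.54 between the lowest stage II and the highest stage I ovary. Group means with their SD were 7.78 ± 0.16 for control (n = 6), 9.11 ± 0.30 for stage I (n = 3) and 11.15 ± 0.29 for stage II (n = 3). The differences from control were 1.33 (2.51-fold) and 3.37 (10.4-fold), with an SE of 0.15.

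Pdzk1ip1 had the lowest control level of the 5 genes among the genes of the array, at the percentile 31.7 of control means. Its probe set 1417689_a_at ran from 5.63 over a median of 5.78 to 6.09 in controls. The stage I ovaries stood at 8.55, 7.55 and 6.79, and the stage II ovaries at 9.97, 9.83 and 9.92. The stage I ovaries were spread over a range of 1.76, and the stage II ovaries lay within 0.13 of each other. Group means with their SD were 5.85 ± 0.18 for control (n = 6), 7.63 ± 0.88 for stage I (n = 3) and 9.91 ± 0.068 for stage II (n = 3). The differences from control were 1.78 (3.44-fold) and 4.06 (16.6-fold), with an SE of 0.27. Without the first stage I ovary the stage I difference was 1.32.

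Ldhd was read by 2 probe sets. The brighter, 1428614_at, ran from 6.78 over a median of 7.01 to 7.61 in controls. The stage I ovaries stood at 9.62, 8.44 and 8.14, and the stage II ovaries at 11.29, 11.37 and 11.74. Again the groups did not overlap, and controls 1 and 4 were the highest of the controls. Group means with their SD were 7.09 ± 0.33 for control (n = 6), 8.73 ± 0.78 for stage I (n = 3) and 11.47 ± 0.24 for stage II (n = 3). The differences from control were 1.65 (3.13-fold) and 4.38 (20.8-fold), with an SE of 0.28.

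The other Ldhd probe set, 1428613_at, gave the same order of groups. It ran from 6.55 over a median of 6.88 to 7.09 in controls, stood at 9.28, 8.01 and 7.62 in stage I, and at 10.60, 10.47 and 11.03 in stage II. Its differences from control were 1.46 (2.76-fold) in stage I and 3.86 (14.5-fold) in stage II. The brighter probe set was the higher of the pair on 11 of 12 arrays, with a difference of -0.051 to 0.909.

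**Figure D1:**
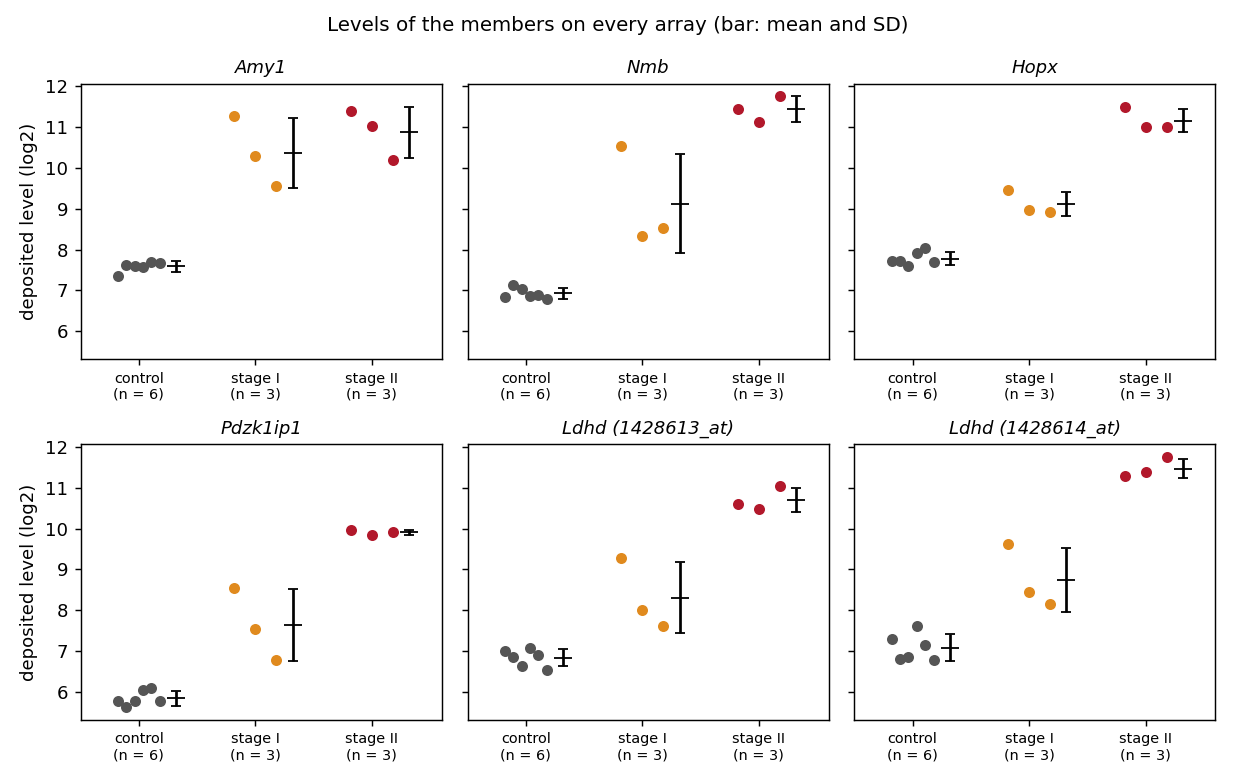
Log2 level of the 6 probe sets of Amy1, Nmb, Hopx, Pdzk1ip1 and Ldhd on each of the 12 arrays, by group (6 control, 3 stage I, 3 stage II); points are arrays and bars are group means with their SD. Every tumor array lies above every control array of its probe set, and the stages overlap for Amy1 alone among the 6.

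All 5 genes are among the 21 genes of 10949 (0.192%) that limma called higher in stage I than in control at an adjusted p of 0.05, where 0 genes (0%) were called lower and 284 had an unadjusted p under 0.05 in that direction. They are also among the 1074 (9.81%) called higher in stage II, where 1228 (11.2%) were called lower. Without stage II array 3 the split turned, to 713 higher and 432 lower. In stage I every array was above every control for 244 genes (2.23%), and in both stages for 158 genes (1.44%), the 5 included. The choice of the genes used these contrasts, so nothing is read from their being in these counts. The 6 controls are shared by both stage comparisons. By the size of the difference among all genes, Amy1 ranked 13 in stage I and 35 in stage II, Nmb 17 and 17, Hopx 33 and 32, Pdzk1ip1 22 and 24, and Ldhd 26 and 19. In an ovary measured as a whole, fewer cells of a type and less RNA per cell cannot be told apart, and the same holds for more cells and more RNA.

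From control to stage II the 5 genes passed from the middle of the array's range to its top. Control means lay at percentiles 31.7 to 54.7 of all genes, with Pdzk1ip1 lowest and Hopx highest. Stage II means lay at percentiles 84.7 to 96.4, with Pdzk1ip1 again lowest and Ldhd (1428614_at) highest. Between the stages, limma called 716 genes (6.54%) higher in stage II and 654 (5.97%) lower, and every stage II array was above every stage I array for 1592 genes (14.5%), with Nmb, Hopx, Pdzk1ip1 and Ldhd among the latter and Amy1 not. The calls were 408 higher and 197 lower without stage I array 3, 416 and 216 without stage I array 2, and 463 and 170 without stage II array 3. The step from stage I to stage II was 2.05 for Hopx (4.14-fold), 2.27 for Pdzk1ip1 (4.83-fold), 2.32 for Nmb (4.98-fold) and 2.73 for the brighter Ldhd probe set (6.65-fold). For these 4 genes stage I had reached between 37.6% and 48.6% of the stage II difference on the log2 scale. Percentiles and shares of this kind compare probe sets of different response and are a description only.

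Within stage I the same ovary was the highest for each of the 5 genes. Stage I ovary 1 had the top value in 6 of 6 probe sets, against 36.7% of all genes, and in 20 of the 21 genes called in stage I. Its log2 level was above the control mean by 3.67 for Amy1, 3.59 for Nmb, 2.70 for Pdzk1ip1, 2.53 for Ldhd (1428614_at) and 1.67 for Hopx. Stage I ovary 3 was the lowest in 5 of 6 probe sets, at 1.97 above the control mean for Amy1, 1.13 for Hopx, 1.06 for Ldhd and 0.94 for Pdzk1ip1. For Nmb ovary 2 was the lowest, at 1.39 against 1.59 for ovary 3. In stage II the order was not shared: ovary 3 was the lowest for Amy1 and the highest for Nmb and for both Ldhd probe sets.

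**Figure D2:**
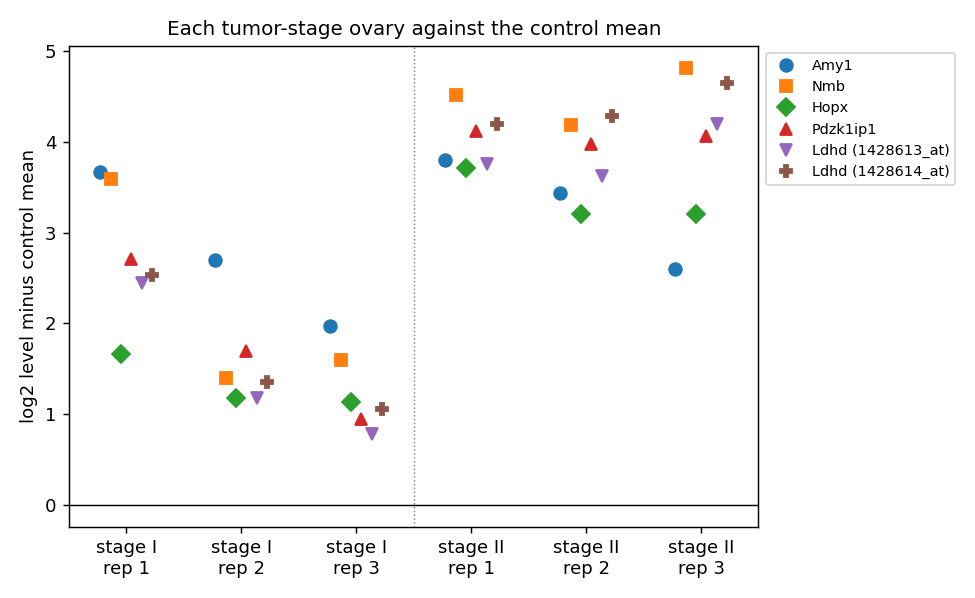
Log2 level of each member on each stage I and stage II array, less the control mean of that probe set; each symbol is 1 probe set. Stage I array 1 is the highest of its stage for 6 of 6 probe sets, and stage II array 3 is the lowest for Amy1 and the highest for Nmb and Ldhd.

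The likeness of 2 genes was measured as the root mean square difference over the 12 arrays between their log2 levels, each set to its control mean. Pdzk1ip1 and Ldhd were the most alike of the 10 pairs, at 0.28. Nmb followed with 0.45 to both Ldhd and Pdzk1ip1, and Hopx with 0.49 to Pdzk1ip1. Amy1 stood apart, at 0.69 from Pdzk1ip1, its nearest member, and 0.91 from Ldhd, the largest value of the 10. The 12 arrays are shared by every pair, so these values describe these libraries.

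The nearest genes were sought among all measured genes, with predicted genes and clone symbols left out. Closest to Pdzk1ip1 were Timp2, an inhibitor of matrix metalloproteinases, at 0.23, Ldhd at 0.28 and Apoh, a plasma glycoprotein, at 0.32. The closest to Ldhd were Pdzk1ip1 at 0.28, and Ccnd1 (cyclin D1) and Gldc (the glycine decarboxylase of mitochondria), both at 0.35. Ccnd1 (0.29) and Gldc (0.32) were also the closest to Nmb, followed by Ptn (pleiotrophin, a secreted growth factor) at 0.37. For Hopx they were Tmem37 at 0.31, Fn1 (fibronectin) at 0.35 and Cp (ceruloplasmin, the copper carrier of plasma) at 0.36. For Amy1 the nearest genes were farther off: Tdo2, which opens the ring of tryptophan, at 0.58, Ptn at 0.62 and Fn1 at 0.63. Tdo2 was the only one of these genes with a stage I mean difference close to its stage II difference, 2.36 against 2.84, as for Amy1. Its stage I difference was not called (limma adjusted p = 0.35), with the 3 ovaries at 4.41, 1.79 and 0.90 above the control mean. That control mean, 3.30, was near the lowest value of the whole table, 2.69.

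**Figure D3:**
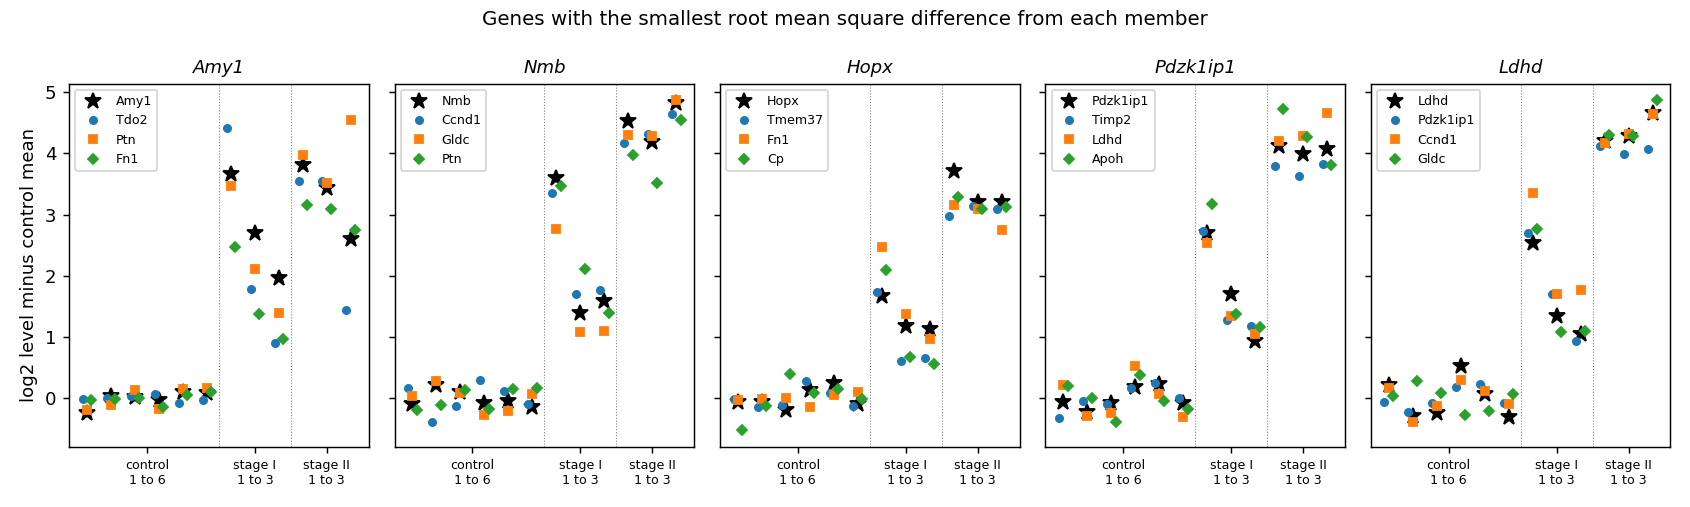
Log2 level less the control mean over the 12 arrays for each of the 5 members and the 3 genes with the smallest root mean square difference from it. Predicted genes and clone symbols were left out. The nearest genes follow Pdzk1ip1 at 0.23 to 0.32 and Amy1 at 0.58 to 0.63.

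The other genes of the members' pathways were not called in stage I. Of 71 measured genes in 5 lists, limma called 0 in stage I against control, with a smallest adjusted p of 0.14, where 0.192% of all genes were called. At an unadjusted p under 0.05 there were 9 of the 71, 1 higher and 8 lower, and 6 of the 8 belong to the list around Hopx. In stage II it called 25 of 71 (35.2%), 11 higher and 14 lower, where 21% of all genes were called. With stage II array 3 left out the count was 14.

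**Figure D4:**
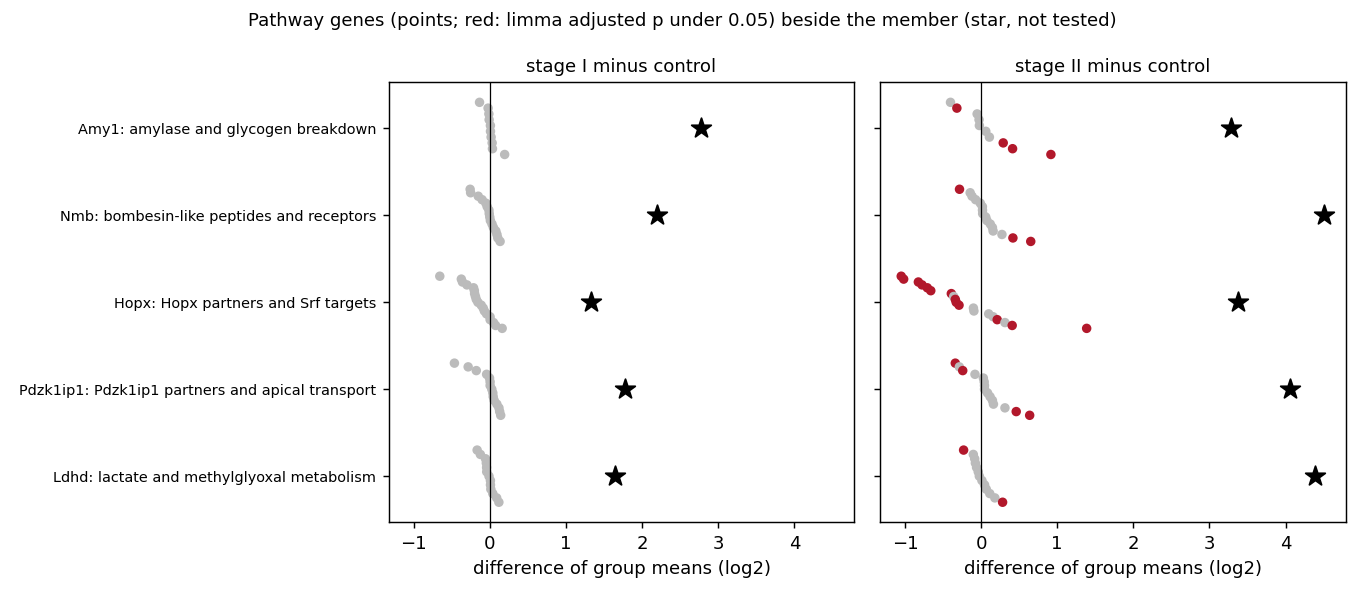
Log2 difference from control in stage I and in stage II for each measured gene of the 5 pathway lists (points, red where limma's adjusted p was under 0.05) and for the member of the list (star, not tested). In stage I 0 of 71 genes are called, and in stage II 25, of which 13 belong to the list of Hopx partners and targets of serum response factor.

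Beside Amy1, 10 of 22 listed genes of amylase and glycogen metabolism were measured, with a median log2 difference of 0.0083 in stage I and 0.020 in stage II, against -0.0015 and -0.014 over all genes. In stage II 3 rose, 1 fell and 6 did not pass, where 21% of all genes were called. Slc37a4, which carries glucose 6-phosphate into the endoplasmic reticulum, rose by 0.92 ± 0.08 (SE, limma adjusted p = 6.7e-06). Ugp2, which makes the UDP-glucose from which glycogen is built, rose by 0.41 ± 0.05 (adjusted p = 0.00021). The call of Gbe1, the branching enzyme (0.29, adjusted p = 0.046), ended in 10 of the 12 fits that each left out 1 array (up to 0.26). That of Phka1, a regulatory subunit of phosphorylase kinase (-0.32, adjusted p = 0.036), ended without control 1, 3, 4 or 6 or stage II array 2 or 3 (up to 0.21). The list kept 2 called genes without stage II array 3 or without control 3, 4 or 6.

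Around Nmb, 16 of 22 genes of bombesin-like peptides, their receptors and the Gq pathway were measured. In stage II 2 rose and 1 fell (median 0.04), where 21% of all genes were called. Nmbr, the receptor of neuromedin B, stayed between 4.75 and 5.17 in controls and between 4.95 and 5.09 in stage II, a difference of 0.06 that was not called (limma adjusted p = 0.66). Its stage I difference of 0.14 was not called either (adjusted p = 0.89). Itpr3, an inositol trisphosphate receptor downstream of Gq, rose by 0.65 ± 0.13 (SE, adjusted p = 0.0035). Gnaq, the Gq protein itself, was lower by a log2 difference of -0.28 (adjusted p = 0.013), and was not called with stage II array 3 left out (0.072). Pcsk1, a protease that cuts peptide precursors, differed by 0.42 (adjusted p = 0.047), a call that ended in 9 of the 12 fits that each left out 1 array (up to 0.16).

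The list of Hopx partners and targets of serum response factor (Srf) held the most called genes. Of 25 listed genes 19 were measured, and 3 rose and 10 fell in stage II, where 21% of all genes were called. The median was -0.33 in stage II, and in stage I it was -0.16 with 0 calls. The genes with the largest falls encode proteins of smooth muscle: Cnn1 (calponin) fell by 1.05 ± 0.08 (SE, limma adjusted p = 3e-06) and Actg2 (smooth muscle γ-actin) fell by 1.02 ± 0.09 (adjusted p = 8.4e-06). Myocd, the muscle coactivator of Srf, fell by 0.82 ± 0.11 (adjusted p = 0.00022). Srf itself differed by -0.39 ± 0.10 (adjusted p = 0.013), and its call ended without stage II array 1 (0.058) and when its probe sets were averaged (-0.19, 0.056). Fos, an early response gene of Srf, rose by 1.39 ± 0.25 (adjusted p = 0.0026). Egr1, another of the list's Srf targets, differed by -0.09 ± 0.33 and was not called (adjusted p = 0.88). Without stage II array 3 the list had 7 calls, 1 higher and 6 lower. Not all smooth muscle genes of the list were called lower: Myh11, the smooth muscle myosin, differed by 0.10 and was not called (adjusted p = 0.22). Its probe set was dim, at 6.03 ± 0.033 (SD, n = 6) in controls, below the lowest array median of 7.09. With no detection calls, it is unknown whether it could have shown a fall. Gata4, a transcription factor that granulosa and theca cells also carry, was among the 10 called lower, by a log2 difference of -0.71 (adjusted p = 0.021).

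For Pdzk1ip1, 15 of 19 partners and genes of apical transport were measured. In stage II 2 rose and 2 fell (median 0.05), where 21% of all genes were called. Slc5a2, the glucose transporter that Pdzk1ip1 binds in the kidney, stood between 5.77 and 6.19 in controls, and its stage II difference of 0.05 was not called (limma adjusted p = 0.81). Pdzk1, the scaffold, differed by -0.24 ± 0.07 (SE, adjusted p = 0.031), and lost its call on leaving out control 2, 3 or 6 or stage II array 2 or 3 (up to 0.15). Slc17a1, an apical phosphate and urate transporter of the kidney, rose by 0.64 ± 0.11 (adjusted p = 0.0023), and Notch1, a receptor, rose by 0.46 ± 0.07 (adjusted p = 0.0006). Smad5, a mediator of BMP signals, differed by -0.34 (adjusted p = 0.014), and was not called with stage II array 3 left out (0.089). The list then held 2 calls.

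Around Ldhd, 13 of 23 genes of lactate and methylglyoxal metabolism were measured, with a median of -0.01 in stage I and -0.02 in stage II. Ldha and Ldhb, the subunits of the cytosolic dehydrogenase for L-lactate, differed in stage II by -0.06 (limma adjusted p = 0.81) and -0.07 (adjusted p = 0.62) and were not called. Pdha1, a subunit of pyruvate dehydrogenase, rose by 0.28 ± 0.06 (SE, adjusted p = 0.0092), a call lost with the replicate number as a block (0.082). Pdhb, its partner subunit, differed by -0.23 (adjusted p = 0.047), a call that ended in 9 of the 12 fits that each left out 1 array (up to 0.25). No other gene of the list was called, which makes 2 of 13 in stage II, where 21% of all genes were called.

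The measured genes nearest to the members on the chromosomes were compared because position played no part in the choice. The 2 nearest measured genes on each side of each member gave 20 genes. Not all adjoin their member: from 0 (Rnpc3) to 21 (Ntng1) other genes of the annotation lay between, with 19 for Prmt6. In stage I limma called 0 of the 20, with a smallest adjusted p of 0.79 and 0 with an unadjusted p under 0.05. Their differences were -0.19 to 0.20, beside 1.33 to 2.78 for the members. In stage II limma called 5 of 20, 4 higher and 1 lower, where 21% of all genes were called, and the median difference was -0.01. Fa2h, which hydroxylates fatty acids and lies on the Ldhd side of chromosome 8, rose by 1.01 ± 0.18 (SE, 2.01-fold, adjusted p = 0.0027), and by 0.66 without stage II array 3. Sec11a, a subunit of the signal peptidase near Nmb, rose by 0.67 ± 0.09 (adjusted p = 0.00036), and by 0.36 (0.047) when its probe sets were averaged. Cmpk1, a nucleotide kinase near Pdzk1ip1, rose by 0.63 ± 0.10 (adjusted p = 0.001).

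Rnpc3, Znrf1 and Zfp1 adjoin a member with no gene between them in the table. Rnpc3, next to Amy1, differed by -0.11 in stage II (limma adjusted p = 0.56), and Zfp1, next to Ldhd, by -0.14 (adjusted p = 0.28). Znrf1, a ubiquitin ligase on the other side of Ldhd, differed by 0.29 (adjusted p = 0.013), and was not called with stage II array 3 left out (0.072). Averaged over its probe sets Znrf1 differed by 0.10 and was not called either (0.16). Pde8a, a phosphodiesterase with 10 genes between it and Nmb, differed by -0.41 (adjusted p = 0.013), and by -0.23 without stage II array 3. The 13 other neighbours were Prmt6, Ntng1 and Col11a1 by Amy1, Wdr73 and Iqgap1 by Nmb, Srp72, Paics, Rest and Noa1 by Hopx, Stil, Cyp4a12a and Cyp4a14 by Pdzk1ip1, and Cfdp1 by Ldhd, and none of these was called in either stage.

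**Figure D5:**
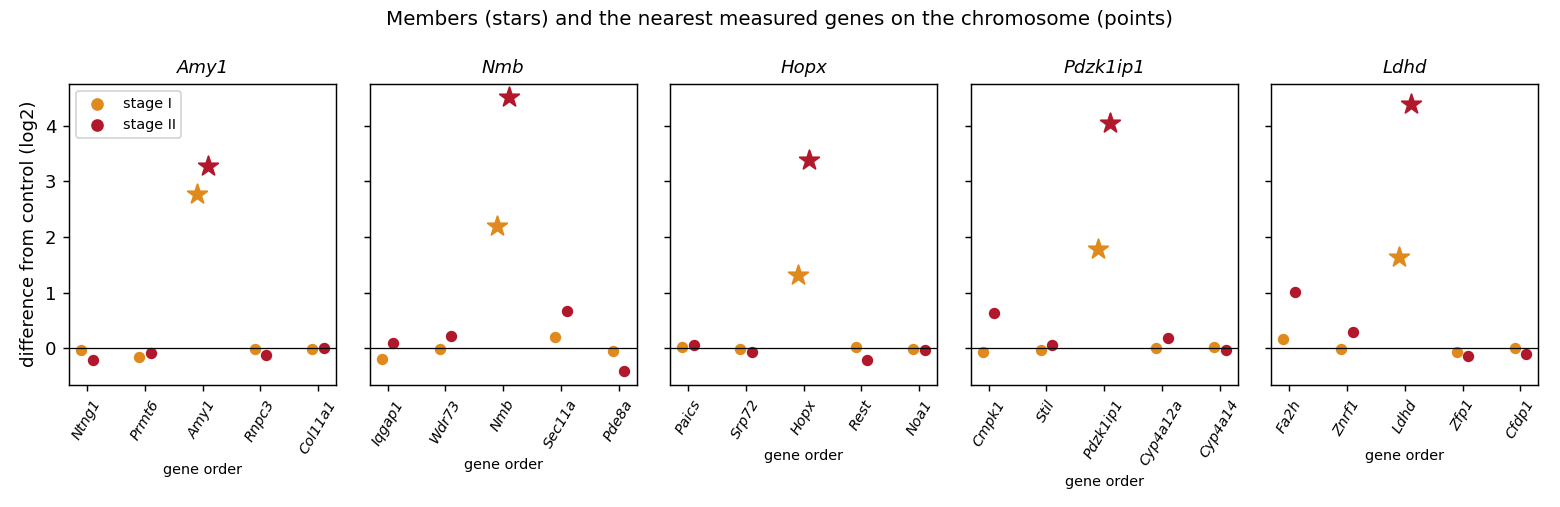
Log2 difference from control in stage I and stage II for each member and its nearest measured neighbours on the chromosome, in gene order. In stage I the 20 neighbours lie between -0.19 and 0.20 and the members between 1.33 and 2.78.

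Amy1, Hopx and Pdzk1ip1 are used as markers in other organs, so the remaining markers of those cells were set beside them. Over all genes, 9.81% were called higher and 11.2% lower in stage II. Of 9 measured acinar genes of pancreas and salivary gland, limma called 0 higher (1 had an unadjusted p under 0.05) and 1, the protease gene Cpa1, fell by 0.53 in stage II (adjusted p = 0.0062). The mean log2 level of the list was 5.51 to 5.71 in controls, 5.55 to 5.61 in stage I and 5.46 to 5.61 in stage II. Of 6 measured markers of alveolar type 1 cells, 2 were called higher in stage II, Ager by 0.31 (adjusted p = 0.019) and Emp2 by 0.24 (adjusted p = 0.024). Both calls ended without stage II array 3, that of Ager also without stage II array 2 and that of Emp2 also without stage II array 1. Emp2 was not called either when its probe sets were averaged. Aqp5, a water channel of the same list, had the largest difference, -0.48, and was not called (adjusted p = 0.092). Of 8 markers of the kidney's proximal tubule, Lrp2, the endocytic receptor megalin, rose by 2.46 (adjusted p = 2.3e-05) and Slc27a2, a fatty acid transporter, was lower by a log2 difference of -0.36 (adjusted p = 0.020), a call lost on leaving out stage II array 3 (0.12). No gene of these 3 lists was called in stage I.

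The ovary's own cells and its other tissues moved in stage II beside the members, and their part in the members' differences was not tested. In stage II 5 of 5 granulosa markers were called lower, where 11.2% of all genes were, with a mean log2 level of 11.15 to 11.79 in controls, 11.43 to 11.79 in stage I and 9.89 to 11.02 in stage II. The calls of Inhba and Inhbb, which encode inhibin subunits, were lost on leaving out stage II array 3. That of Inhbb was also lost without control 2, 3, 5 or 6 (limma adjusted p up to 0.15). Of 6 oocyte markers 6 were called lower (8.64 to 9.10 in controls, 8.66 to 8.84 in stage I and 7.55 to 8.32 in stage II). Of 4 theca and interstitial markers 3 were lower, among them Cyp17a1, the enzyme that makes androgens, which fell by 2.68 (limma adjusted p = 0.023), and by 1.29 without stage II array 3. Of 4 luteal and 7 oviduct markers limma called 0, and 1 and 2 had an unadjusted p under 0.05. Of 5 fat cell markers Fabp4 rose by 2.47 (adjusted p = 0.0026), or by 1.41 when its probe sets were averaged, and Adipoq fell by 3.34 (adjusted p = 0.0042).

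Some epithelial and macrophage markers were called higher, against 9.81% of all genes. Of 7 epithelial markers 3 rose in stage II, among them Krt8 by 3.59 (limma adjusted p = 1e-05) and Cldn3 by 1.42 (adjusted p = 7e-05). Epcam (-0.67), Krt7 (-0.40) and Cldn4 (-0.04) had lower means in stage II and were not called. The mean log2 level of the list was 6.78 to 7.83 in controls, 7.53 to 7.94 in stage I and 7.97 to 8.37 in stage II. Of 6 macrophage markers 4 rose in stage II, among them Cd14 by 2.50 (adjusted p = 6.2e-06) and C1qa by 0.52. The call of C1qa ended in 6 of the 12 fits that each left out 1 array (limma adjusted p up to 0.17). The mean log2 level of the macrophage list was 8.90 to 9.18 in controls, 9.08 to 9.74 in stage I and 9.63 to 9.86 in stage II. In stage I, where the 5 members were already higher, limma called 0 of the 65 genes of all marker lists, where 0.192% of all genes were called. At an unadjusted p under 0.05 there were 6 of them, all higher: 4 of the macrophage markers and 2 of the epithelial ones.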

How the data were processed

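The values that the authors deposited are log2 levels, 1 per probe set and array. How they were summarized and normalized is not stated: the method is not given in the sources used. The log2 base was taken from the range of the values, 2.69 to 14.4. Array medians lay between 7.09 and 7.15. Per the labels, the label was biotin, although their labelling protocol also names Cy3 and Cy5; each sample has 1 column of values.

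The table holds 16376 probe sets, of which 14674 have 1 gene symbol in the platform annotation, 427 several and 1275 none. Of the first, 14632 matched RefSeq's table of GRCm38.p6 by Entrez identifier, which changed 0 symbols. Each of the 10949 genes was tested through 1 probe set, the one whose mean over the 12 arrays was highest. A linear model with 1 mean per group (6 control, 3 stage I and 3 stage II arrays) was fitted with limma 3.58.1 in R 4.3.3, with Benjamini-Hochberg adjustment over all genes and a threshold of 0.05. The script was tested on simulated data. The replicates are separate bioreplicates per the labels, and their number limits the precision. A standard error of a member is that of this model, which shares 1 spread per gene over the 3 groups. For every member the stage I arrays varied more than the controls, so it understates the uncertainty of the stage I difference.

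The members, the gene lists and the tests were chosen with earlier results of these data known. The rule for names was: the 5 members, up to 4 called genes of largest difference per pathway list, all neighbours, the 3 nearest patterns per member, up to 2 called markers per list of largest difference, and Pgr. Nmbr, Slc5a2, Ldha, Ldhb, Srf, Egr1, Myh11, Gata4, Epcam, Krt7, Cldn4 and Aqp5 were named after their values were seen. Promoter sequences are from RefSeq, GRCm38.p6. Alternatives were another normalization, median centring, leaving out the dimmest 25% of genes, averaging the probe sets of each gene, a fit of only the compared groups, a block for the replicate number, array weights, a trended and robust prior for the variance, and leaving out each array.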

Additional observations from a re-analysis of the deposited data

Results flagged for a closer look

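In 3 of 77 groups of 6 control arrays, 1 array stood apart from the others by Dixon's test. Chance alone gives about 1 in 20 groups. Amy1 was 7.3464 in control 1, the lowest of the controls, with the next at 7.5648 and the highest at 7.6902, so 0.635 of the range lay in that gap. The probe set annotated to both Rnpc3 and Amy1 was 7.8285 in control 4, with the next at 8.2203 and the highest at 8.3251 (0.789 of the range). Ldhb was 11.5077 in control 1, with the next at 11.7297 and the highest at 11.8413 (0.665 of the range). The lowest stage I value of Amy1 lay 1.87 above its highest control, and stage groups of 3 arrays were too small for this test.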

How the results depend on the processing

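The members' differences from control, and the stage II differences of 40 other genes called there, changed direction under none of the settings run. Other single genes were not followed in this way. The members' stage I differences, when each array was left out in turn, ran from 2.34 to 3.18 for Amy1, 1.49 to 2.59 for Nmb, 1.16 to 1.42 for Hopx, 1.32 to 2.20 for Pdzk1ip1 and 1.20 to 1.94 for Ldhd. Their stage II differences ran from 3.02 to 3.62, 4.35 to 4.67, 3.21 to 3.46, 4.01 to 4.10 and 4.24 to 4.48. The counts over all genes moved more. With the replicate number as a block, genes called in stage I were 6 (5 higher and 1 lower) in place of 21. In stage II they were 1090 (688 higher and 402 lower) in place of 2302, and between the stages 602 in place of 1370. Pathway genes called in stage II were then 13 in place of 25. The block also ended stage II calls that held in every fit that left out 1 array. These were Pdha1 (limma adjusted p = 0.082), Cpa1 (0.058), Pde8a (0.073) and Cyp17a1 (0.13). The labels do not state that the replicate numbers pair the samples. Same-numbered deviations from the group means correlated at -0.12, 0.04 and -0.09 between control and stage I. They correlated at 0.20, 0.20 and -0.12 between control and stage II, and at 0.03, 0.20 and -0.13 between the stages. Differently numbered arrays were not compared, so these values do not settle whether the numbers pair the samples. Leaving out 1 array gave 15 to 28 calls in stage I, 1145 to 2432 in stage II (lowest without stage II array 3), 605 to 1610 between the stages (lowest without stage I array 3) and 14 to 24 pathway genes. Between the stages, a fit of only those groups gave 393 calls (311 higher and 82 lower) and array weights gave 2308. Without controls 1 and 4 together, a setting chosen after seeing the data, stage I had 13 calls. The cause of these shifts was not tested. Of the stage II tests of the 40 called genes that are no members under the alternatives, 744 kept their side of the threshold and 92 lost it. Genes not called in the fit as reported, Pgr and the nearest patterns were left out of these, so a gained call could not appear. With no detection calls, it is unknown which low values lie above background.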
